A study of Mus musculus with 6 samples.

Results

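The Hox genes of the mouse encode homeodomain transcription factors and lie in 4 clusters, Hoxa, Hoxb, Hoxc and Hoxd. They were taken here by name, as every probe of the array that carried exactly 1 gene symbol of the form Hoxa to Hoxd plus a paralog number, with log2 intensities averaged per symbol. This gave 36 of the 39 Hox genes in the RefSeq gene table, measured by 37 probes, among 22180 genes in all. They comprised 9 Hoxa, 10 Hoxb, 9 Hoxc and 8 Hoxd genes. The other 3 had no probe with 1 symbol and were not analysed here as genes.

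Hox genes within a cluster are arranged in the order in which they are used along the head-to-tail axis of the embryo. Low-numbered paralogs at the 3′ end are switched on first, in the primitive streak, and mark the hindbrain and the front of the trunk, while high-numbered paralogs come on later and mark more posterior levels, limbs and genitalia. In pluripotent cells the clusters are held silent by Polycomb complexes, and Wnt, FGF and retinoic acid signals are known to open them from the 3′ end.

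The study measured total RNA of mouse embryonic stem cells (mESC) of the EB3 line and of epiblast-like cells (EpiLC) made from them, on Affymetrix Mouse Gene 2.0 ST arrays. mESC were grown in N2B27 medium with LIF and BMP4, and EpiLC in N2B27 with Activin A at 20 ng/ml and bFGF at 12 ng/ml, on serum-coated dishes for 2 days. Each state was left untreated, given CHIR99021 at 3 µM (CHIR, a GSK3 inhibitor that activates Wnt/β-catenin signalling), or given CHIR with PD0325901 at 1 µM (PD, a MEK inhibitor that blocks ERK signalling), in each case for 24 hours. There was 1 array per group and 6 arrays in all, so a difference between 2 arrays has no replicate check and is given by size alone, and nothing in the labels says how many cultures stand behind an array. All 6 arrays thus share the EB3 background, a single cell line. The EpiLC arrays also differ from the mESC arrays in medium, so state and medium cannot be told apart. In bulk RNA, fewer cells that express a gene and less of its RNA per cell cannot be told apart.

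The labelled states were clear in the markers of the untreated arrays and less so in those of the treated arrays. Esrrb, a naive pluripotency factor, read 357 in untreated, 467 in CHIR-treated and 524 in CHIR-and-PD-treated mESC, against 22.5, 21.4 and 33.7 in the corresponding EpiLC. Fgf5, a marker of the formative state, read 1258.5 in untreated and 770 in CHIR-treated EpiLC but 39.4 in EpiLC with CHIR and PD, close to the 35.6 of CHIR-treated mESC, so the EpiLC with both inhibitors lacked this marker of their label. Over the lists, 7 of 7 naive markers were at least 2-fold lower and 4 of 4 formative markers at least 2-fold higher in EpiLC when both states were untreated. With CHIR in both states 7 of 7 naive markers were lower in EpiLC and 2 of 4 formative markers higher, and with both inhibitors 6 of 7 and 1 of 4. Nanog was the naive exception, at 2498 in EpiLC and 2969 in mESC with both inhibitors, and the formative gene Dnmt3b read 1279 in EpiLC and 1289 in mESC with CHIR. Pou5f1, expressed in both states, ranged from 558 to 1342. Array medians lay between 60.5 and 65.2 over all probes, and the lowest value was 16 on every array. A gene under 32 is called near the floor below, because differences there are compressed.

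Because Hoxb1, Hoxd1 and Hoxa2 are anterior genes with different behaviour in these data, the stretch upstream of their RefSeq start is shown for reference. The sequences are the first 238 bases of RefSeq promoter windows on GRCm38.p6, 5′ to 3′ on the gene's strand, and capitals mark matches to the motifs searched. The Hoxb1 stretch is chr11:96365508-96365745 on the plus strand, that of Hoxd1 is chr2:74762730-74762967 on the plus strand, and that of Hoxa2 is chr6:52164844-52165081 on the minus strand. The table held such windows for 22 of the Hox genes (24 windows) and Hoxb2 was not among them.
Hoxb1: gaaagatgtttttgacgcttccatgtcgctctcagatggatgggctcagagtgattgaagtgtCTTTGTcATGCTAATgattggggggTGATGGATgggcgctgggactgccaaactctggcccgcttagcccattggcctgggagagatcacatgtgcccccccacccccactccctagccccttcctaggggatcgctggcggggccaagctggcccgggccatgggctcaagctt
Hoxd1: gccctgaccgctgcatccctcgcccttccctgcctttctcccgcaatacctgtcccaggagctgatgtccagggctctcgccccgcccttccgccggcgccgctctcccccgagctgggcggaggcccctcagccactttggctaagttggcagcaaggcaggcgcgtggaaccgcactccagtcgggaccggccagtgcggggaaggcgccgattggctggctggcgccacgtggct
Hoxa2: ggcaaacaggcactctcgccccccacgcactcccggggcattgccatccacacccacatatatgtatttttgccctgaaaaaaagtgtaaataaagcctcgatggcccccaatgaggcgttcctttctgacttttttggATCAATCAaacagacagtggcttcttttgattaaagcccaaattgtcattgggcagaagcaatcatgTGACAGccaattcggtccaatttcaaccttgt

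In the Hoxb1 stretch, bases 64 to 69 match the Sox letters CTTTGT, bases 71 to 78 match the octamer letters ATGCNAAT, and bases 89 to 96 match the Pbx/Hox letters TGATNNAT, counted from the first base shown, and the 3 matches do not overlap. An autoregulatory element with Pbx/Hox sites and a Sox-octamer site is known upstream of Hoxb1. On either strand, CTTTGT occurred in 15.8% of all 32851 windows cut to this length, ATGCNAAT in 2.79% and TGATNNAT in 7.43%. Of the 24 Hox windows, 5 held CTTTGT, 1 held ATGCNAAT and 3 held TGATNNAT. The Tcf/Lef letters CTTTGA were found in 13.4% of all windows and in 3 Hox windows, and the Cdx letters TTTATG in 10.5% and in 5, with neither in the Hoxb1 stretch. The T-box letters AGGTGT were found in 11.4% of all windows and in 2 Hox windows, those of Hoxd9 and Hoxa10. The retinoic acid receptor direct repeats known as DR5 and DR2, searched without mismatch, each occurred in 3 of all windows and in 0 Hox windows. The Hoxa2 stretch held TGATNNAT on the opposite strand at bases 140 to 147 and the Meis/Pknox letters TGACAG at bases 207 to 212, a motif of 15.2% of all windows and 1 Hox window. The Hoxd1 stretch matched none of these motifs. A match describes these letters in this window and shows no binding.

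Across the 6 arrays, Hoxb1 and Hoxb2 varied far more than any other Hox gene. Their highest array stood 73.8-fold and 34.9-fold above their lowest. Hoxd9 followed at 2.53-fold and Hoxc13 at 2.22-fold, and the other 32 Hox genes spanned at most 1.96-fold, the value for Hoxd13. Of the 36 genes, 8 (22.2%) were near the floor on at least 1 array and 1, Hoxc5, was near it on all 6 (2.78%). Among all genes the corresponding shares were 23.3% and 10.8%. On each array, however, 23 to 26 of the 36 Hox genes read under the median over all genes. No detection call was used, so a steady low value need not mean expression.

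**Figure D1:**
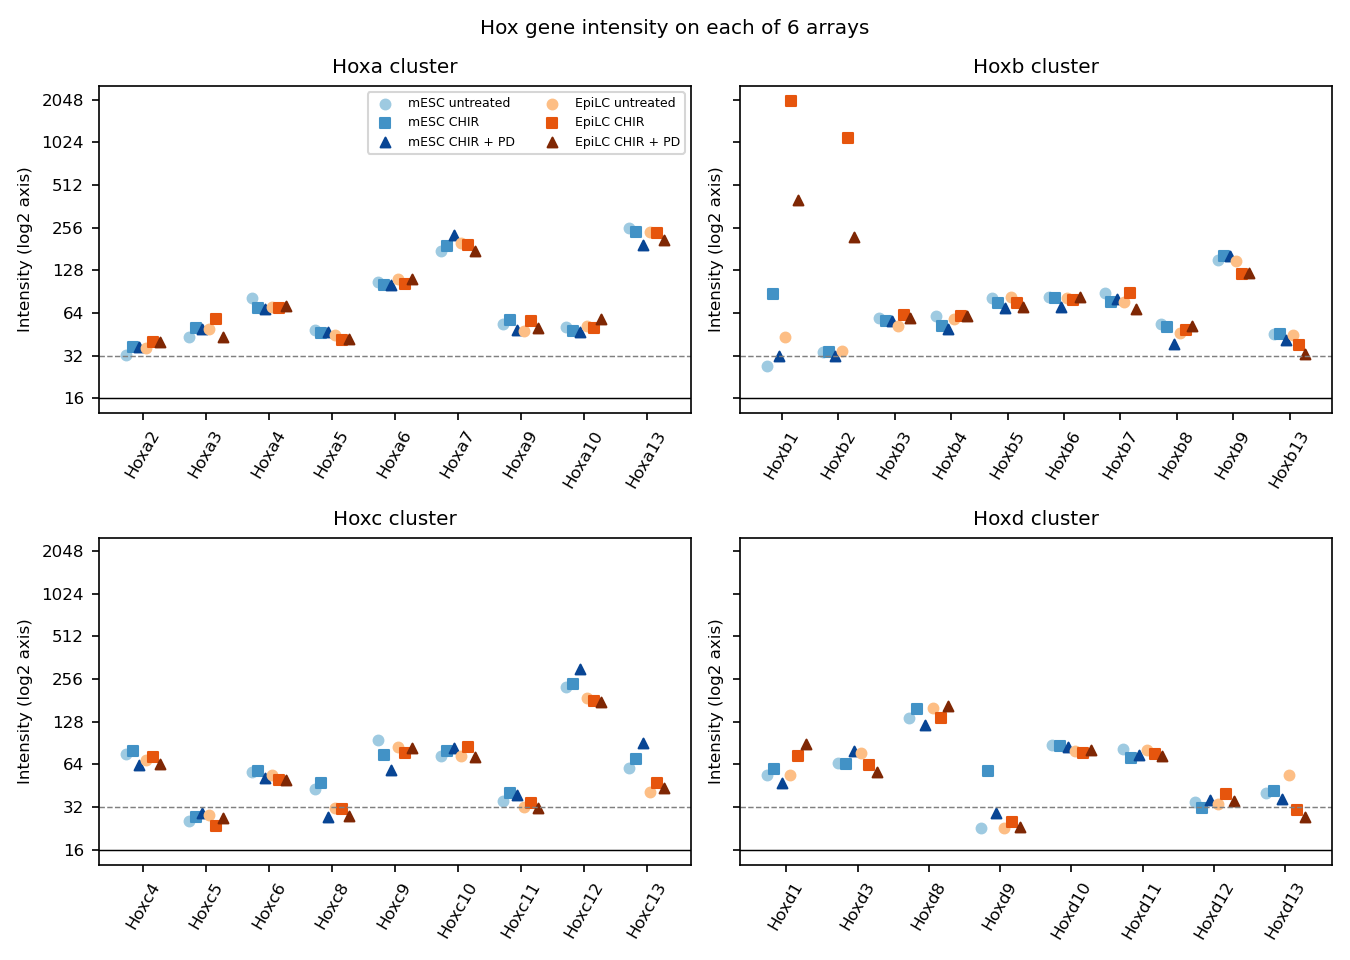
Intensity of each of the 36 Hox genes on each of the 6 arrays, on a log2 axis, with 1 panel per cluster and genes in paralog order. Each point is 1 array, blue for mESC and orange for EpiLC. The solid line is the lowest value of 16, and the dashed line at 32 marks the range near the floor. Hoxb1 and Hoxb2 reached 2008 and 1102 in CHIR-treated EpiLC, while the points of most other genes lie close together.

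Hoxb1, a hindbrain gene that sets the identity of rhombomere 4 and is also switched on early in the streak, was highest in EpiLC with CHIR. It read 27.2 in untreated mESC, 87.7 in mESC with CHIR and 31.8 in mESC with CHIR and PD. In EpiLC it read 43.0 untreated, 2008 with CHIR and 403 with CHIR and PD. Both EpiLC arrays with CHIR thus stood above every other array, and within mESC the CHIR array stood above the other two. Of the 6 arrays, only untreated mESC and mESC with both inhibitors had Hoxb1 near the floor.

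Hoxb2 lies next to Hoxb1 at the 3′ end of the Hoxb cluster in the RefSeq order and acts with it in the hindbrain. It read 33.7, 34.1 and 31.5 in untreated, CHIR-treated and CHIR-and-PD-treated mESC, and 34.4, 1102 and 219 in the corresponding EpiLC. The 2 EpiLC arrays with CHIR were high and the other 4 arrays lay between 31.5 and 34.4, close to the floor. A separate probe that the platform table assigns to both Hoxb3 and Hoxb2 read 57.7, 58.9 and 61.3 in mESC and 58.5, 88.0 and 60.5 in EpiLC. It was therefore also highest in CHIR-treated EpiLC, but at 1.51 times the untreated value and not the 31.99 times of the Hoxb2 probe. Averaging the 2 probes lowers the Hoxb2 difference in this comparison from 5.0 to 2.80 on the log2 scale.

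With CHIR in EpiLC, Hoxb1 was 46.6-fold above the untreated array, a log2 difference of 5.54 that ranked 3 of 22180 genes, and Hoxb2 ranked 5. These 2 of 36 Hox genes (5.56%) differed at least 2-fold, against 2.7% of all genes, so it is their size more than their number that stands out. Subtracting the lowest value of 16 and adding 64 in its place, which compresses low values further, gave log2 differences of 4.50 and 3.80. The other 34 Hox genes lay between -0.81 and 0.43 on the log2 scale, and 33 of the 34 were within 1.5-fold. The exception was Hoxd13, a gene of digits and genitalia, which read 53.7 untreated, 30.5 with CHIR and 27.4 with both inhibitors, the last 2 near the floor. The median difference was -0.02 over all 36 Hox genes and -0.03 over all genes.

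In mESC, CHIR gave a smaller Hoxb1 difference, 1.69 on the log2 scale or 3.22-fold, which ranked 5 of 22180 in a comparison where few genes differed. The untreated value of 27.2 was near the floor. Hoxb2 did not share it, at 0.02. In this comparison 2 of 36 Hox genes differed at least 2-fold, Hoxb1 and Hoxd9, against 0.338% of all genes. Hoxd9, a posterior gene of limb and lumbar levels, read 22.9, 57.5 and 29.0 in untreated, CHIR-treated and CHIR-and-PD-treated mESC and 22.8, 25.2 and 23.2 in EpiLC. Its CHIR-treated mESC array was the only one of the 6 above the floor range, and its fold rests on values near the floor. With 64 in place of the lowest value, 0 of 36 Hox genes passed 2-fold with CHIR in mESC. The CHIR response was larger in EpiLC than in mESC by 3.86 for Hoxb1 and 4.98 for Hoxb2 on the log2 scale and smaller by 1.18 for Hoxd9. With 1 array per group these differences between the states were not tested.

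**Figure D2:**
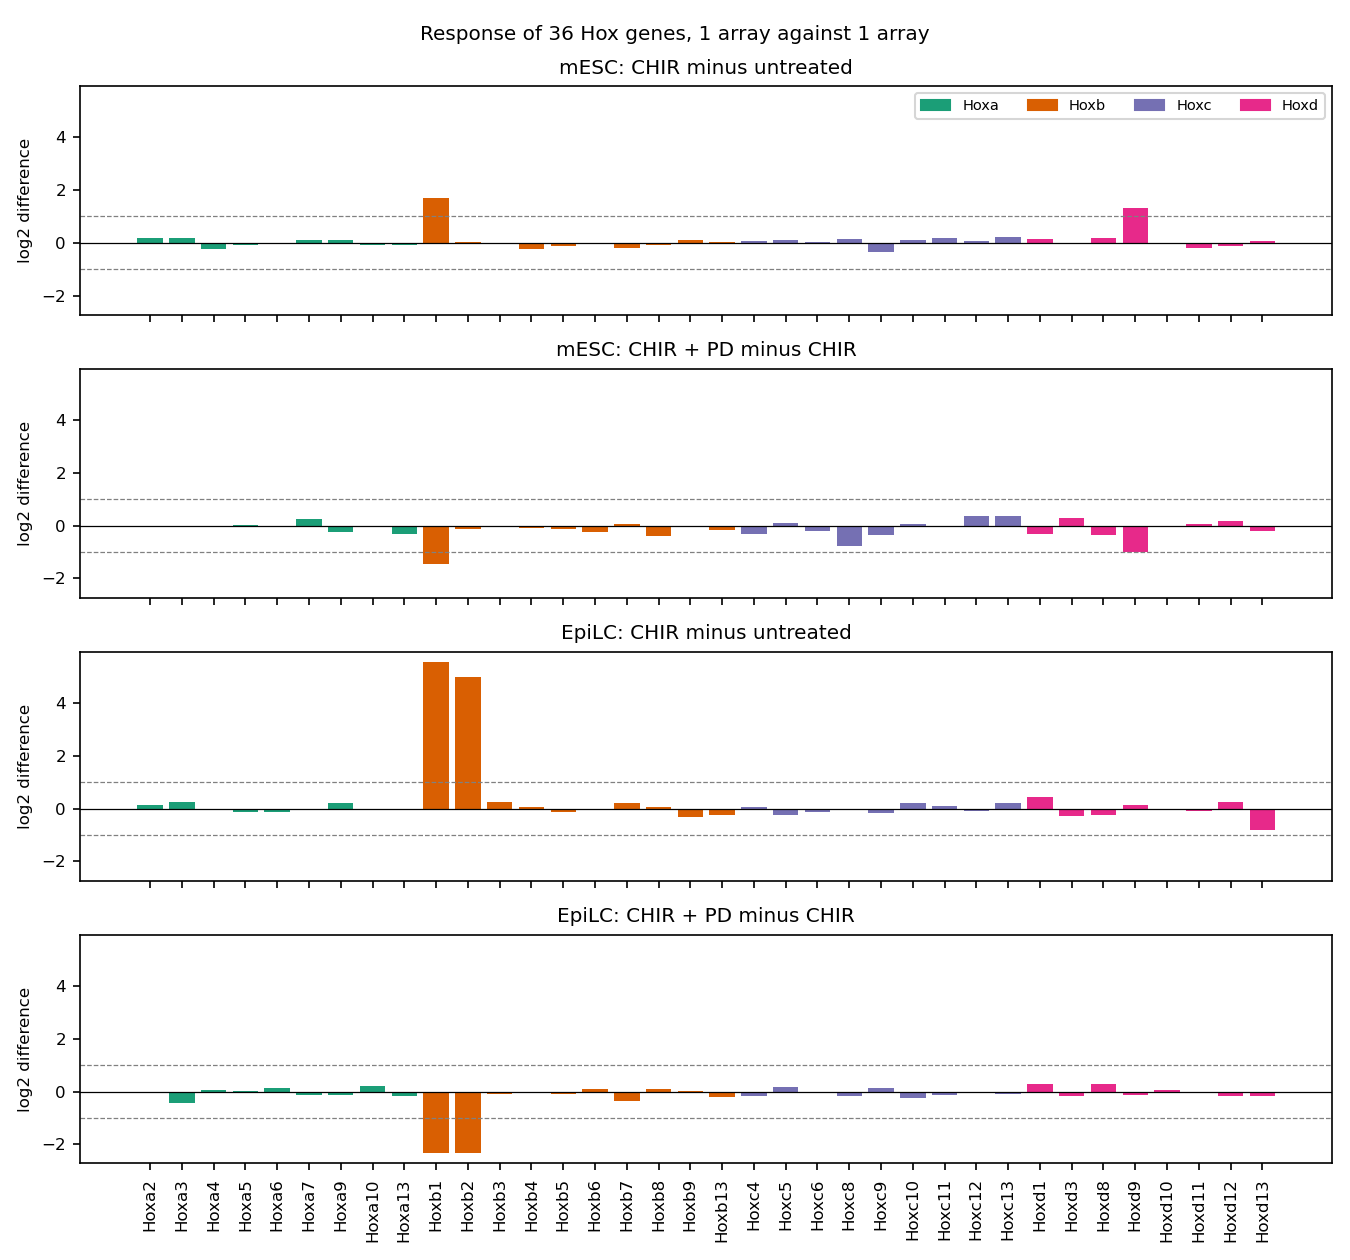
Log2 difference of each Hox gene between 2 arrays, for CHIR against untreated and for CHIR with PD against CHIR, in mESC and in EpiLC. Bars start at 0 and are coloured by cluster, and the dashed lines mark a 2-fold difference. Hoxb1 and Hoxb2 reach 5.54 and 5.0 with CHIR in EpiLC and -2.32 and -2.33 when PD is added there, and the other bars are short apart from Hoxb1 and Hoxd9 in mESC.

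When PD was added to CHIR in EpiLC, Hoxb1 and Hoxb2 were lower by nearly the same factor, 4.98-fold and 5.03-fold. On the log2 scale these were differences of -2.32 and -2.33. They were the only 2 of 36 Hox genes at least 2-fold apart in this comparison, against 2.05% of all genes. The other 34 lay between -0.43 and 0.29, and all 34 were within 1.5-fold. In mESC the same step lowered the Hoxb1 value from 87.7 to 31.8, or 2.76-fold, and 1 of 36 Hox genes passed 2-fold, against 0.775% of all genes. Hoxc8, a thoracic gene, read 46.9 with CHIR and 27.3 with both inhibitors in mESC, 1.72-fold lower, and Hoxd9 went from 57.5 to 29.0, just short of 2-fold.

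Hoxb1 and Hoxb2 with both inhibitors stayed at least 2-fold above the untreated array in EpiLC and not in mESC. In EpiLC the difference from untreated was 9.37-fold for Hoxb1 and 6.36-fold for Hoxb2, and these were the 2 of 36 Hox genes past 2-fold, against 4.11% of all genes. In mESC the log2 differences were 0.23 and -0.10, and 0 of 36 Hox genes passed 2-fold, against 1.47% of all genes. Of the 392 genes at least 2-fold higher with CHIR in EpiLC, 205 (52.3%) were also at least 2-fold above untreated with both inhibitors. Staying above untreated was therefore not particular to Hoxb1 and Hoxb2. The comparisons with CHIR alone and with both inhibitors share the untreated array of each state. Streak and presomitic genes were mixed in whether they stayed above untreated. With both inhibitors in EpiLC, 2 of 11 measured streak and presomitic genes were at least 2-fold above untreated, Fgf8, which read 91.3, 286 and 533, and the apelin receptor gene Aplnr, which read 33.7, 4485 and 356. Msgn1, a factor of presomitic mesoderm, read 65.2 untreated, 3768 with CHIR and 51.7 with both inhibitors. Mixl1, a streak homeobox gene, read 179, 3378 and 172. Msgn1 and Mixl1 were thus close to their untreated values with PD.

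The other anterior genes, paralogs 1 to 3, showed small differences. Hoxd1, known from sensory neurons, read 53.7, 59.4 and 47.3 in untreated, CHIR-treated and CHIR-and-PD-treated mESC and 54.3, 72.9 and 89.1 in EpiLC. Its 2 inhibitor-treated EpiLC arrays were the highest, with both inhibitors 1.64-fold above untreated. Hoxa2, which patterns the second pharyngeal arch, ranged from 32.1 to 40.2 over all arrays. Hoxa3, needed for thymus and parathyroid, ranged from 43.0 to 58.0, and its highest value was that of CHIR-treated EpiLC. Hoxb3, the neighbour of Hoxb2, ranged from 51.9 to 61.8, also highest there. Hoxd3 ranged from 56.2 to 79.9 and was lower with CHIR than without in EpiLC. With CHIR in EpiLC, 6 of the 7 anterior genes were higher than untreated, against 9992 of all 22180 genes. Their median was 0.25 on the log2 scale. The median was 0.23 for the 5 without Hoxb1 and Hoxb2, which is under 1.5-fold.

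Central and posterior Hox genes did not follow Hoxb1 in CHIR-treated EpiLC. Over the 14 central genes, paralogs 4 to 8, the median difference was -0.06, 4 were higher and all 14 were within 1.5-fold. Over the 15 posterior genes, paralogs 9 to 13, 6 were higher and the values ran from -0.81 for Hoxd13 to 0.24 for Hoxd12. Within the Hoxb cluster itself, the 8 measured genes from Hoxb3 to Hoxb13 had a median of -0.01 and ran from -0.30 to 0.25. Beyond Hoxb2 no Hoxb gene therefore reached 1.5-fold. Hoxb9, a thoracic gene, read 150.5, 163 and 161 in mESC and 149, 121 and 123 in EpiLC. Hoxb13, a gene of the tail end and prostate, read 44.8 in untreated EpiLC, 37.9 with CHIR and 33.0 with both inhibitors.

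The Hoxa genes were the steadiest cluster. With CHIR in EpiLC all 9 measured Hoxa genes were within 1.5-fold, from -0.12 to 0.23 on the log2 scale, and Hoxa6 varied least of all 36 genes, 1.10-fold over 6 arrays. Hoxa7 was the Hoxa gene highest in mESC with both inhibitors, at 228 against 174 to 198 elsewhere. Hoxa13, needed for digits and the hindgut, ranged from 194 to 255.5 and had its lowest value in the same culture. Hoxb5 was the gene with 2 probes, which ranged from 41.8 to 51.3 and from 111 to 136. The platform table assigned 7 further probes to a Hox gene together with another gene, among them Hoxa11 with its antisense RNA and Hoxd4 with Hoxd3. None of the 7 varied by more than 1.53-fold over the 6 arrays, so the probes that include Hoxa11 and Hoxd4 showed no response of the Hoxb1 kind.

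The remaining genes are given by their lowest and highest array. Hoxa4, Hoxb4 and Hoxc4, paralogs that pattern the neck vertebrae, ranged from 68.3 to 82.1, from 49.5 to 61.0 and from 63.9 to 79.9. Hoxa5, needed for lung and neck patterning, ranged from 41.1 to 48.3, and Hoxc5, near the floor on every array, from 23.7 to 29.1. Hoxa6 ranged from 101 to 111, Hoxb6 from 70.3 to 83.0 and Hoxc6 from 49.3 to 57.8. CHIR-treated EpiLC was the highest array for none of these 8 genes.

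Among the remaining trunk and posterior genes, Hoxb7 ranged from 68.7 to 88.6, Hoxb8 from 38.3 to 53.2 and Hoxd8 from 122 to 165. Hoxc8 read 42.8 and 46.9 in untreated and CHIR-treated mESC and 27.3 to 31.4 on the other 4 arrays, all of them near the floor. Hoxa9 ranged from 47.9 to 57.3 and Hoxc9 from 58.7, in mESC with both inhibitors, to 95.1, in untreated mESC. Hoxa10, Hoxc10 and Hoxd10, which pattern the lumbar region, ranged from 46.8 to 57.6, from 72.3 to 85.1 and from 77.2 to 87.7. Hoxc11, Hoxd11 and Hoxd12 ranged from 31.5 to 40.0, from 71.5 to 81.8 and from 31.6 to 39.8. The order of arrays thus differed from gene to gene, and no culture was highest for all posterior genes.

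To compare the states over all 3 treatments, an additive limma fit of state and treatment to the 6 arrays was used, in which 3 arrays stand on each side and 2 residual degrees of freedom remain. Of 36 Hox genes, 1 passed an adjusted p of 0.05, against 8.3% of all genes. This was Hoxc13, a gene of hair follicles and nails. It read 60.3, 69.9 and 91.1 in untreated, CHIR-treated and CHIR-and-PD-treated mESC and 40.9, 47.0 and 43.6 in EpiLC. The 3 EpiLC arrays lay below the 3 mESC arrays with no overlap. In log2 units Hoxc13 fell by 0.73 from mESC to EpiLC, with an SE of 0.14 and an adjusted p of 0.0338 in limma, and it was lower in EpiLC in 3 of 3 treatments. The adjusted p rose to between 0.0706 and 0.0771 whichever single array was left out, to 0.0561 with a constant of 4 in place of the lowest value and to 0.0630 with 64. Without moderation it was 0.312, and over 14 alternatives it ran from 0.0246 to 0.312, with the difference always below 0.

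**Figure D3:**
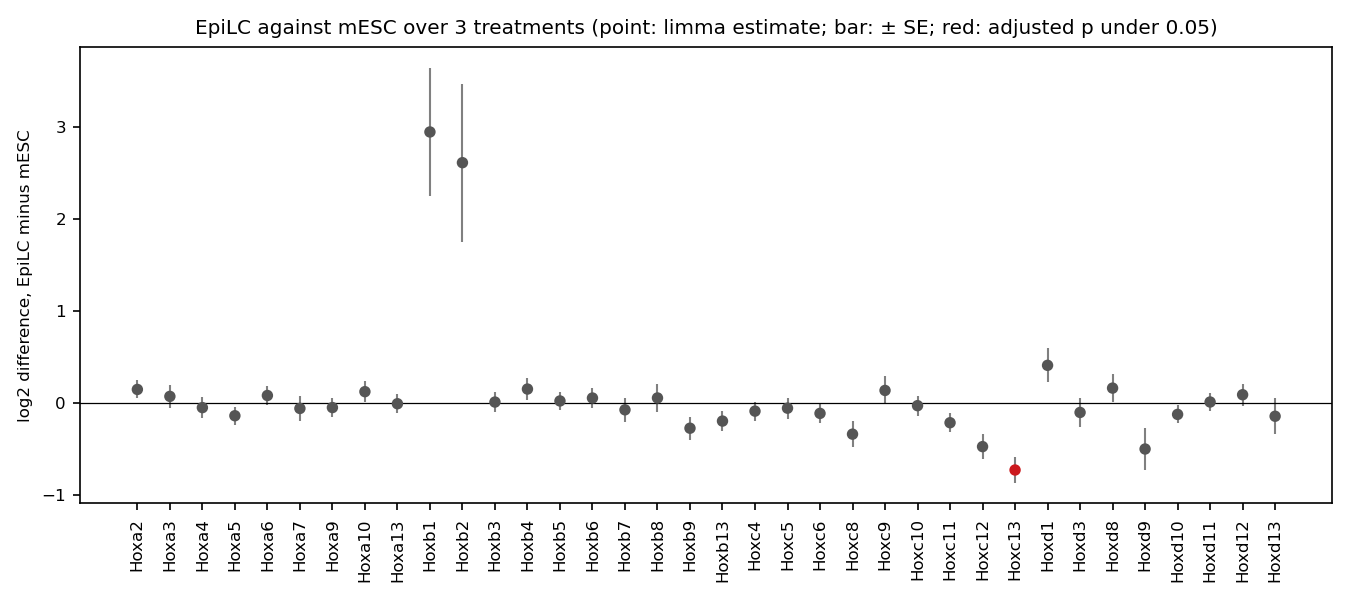
Log2 difference between EpiLC and mESC over the 3 treatments for each Hox gene, in paralog order within each cluster. Points are limma estimates and bars are ± 1 SE from 6 arrays. The red point, Hoxc13 at -0.73, is the 1 gene past the adjusted p of 0.05. Hoxb1 at 2.95 and Hoxb2 at 2.61 have the longest bars.

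The state differences of Hoxb1 and Hoxb2 were large but unequal between treatments, and their errors were large in this fit. In log2 units Hoxb1 was 2.95 higher in EpiLC (SE 0.70, limma adjusted p = 0.0632) and Hoxb2 2.61 higher (SE 0.86, limma adjusted p = 0.137). Hoxb1 was 1.58-fold higher in EpiLC untreated, 22.9-fold with CHIR and 12.7-fold with both inhibitors. Hoxb2 was equally low in both untreated states, with a log2 difference of 0.03, and 32.3-fold and 6.95-fold higher in EpiLC with CHIR and with both inhibitors. Without the untreated mESC array or without the untreated EpiLC array, the Hoxb1 difference was 4.09 (limma adjusted p = 0.00860) and that of Hoxb2 was 3.90 (limma adjusted p = 0.0343). Leaving out either array of a treatment gives the same state estimate by construction, so these 2 alternatives are 1 check. Over 14 alternatives the adjusted p ran from 0.00860 to 0.412 for Hoxb1 and from 0.0343 to 0.499 for Hoxb2. Hoxc12, the neighbour of Hoxc13, read 224, 237 and 304 in mESC and 188, 179 and 177 in EpiLC, without overlap, with a difference of -0.48 (SE 0.14, limma adjusted p = 0.0976). At an unadjusted p under 0.05, 4 of 36 Hox genes stood out, which is 11.1% against 24% of all genes.

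Set array against array, 0 of 36 Hox genes differed at least 2-fold between untreated EpiLC and untreated mESC, against 3.76% of all genes. Between the CHIR-treated states 3 of 36 did, against 5.08% of all genes, namely Hoxb1 and Hoxb2, higher in EpiLC, and Hoxd9, lower. Between the states with both inhibitors 3 of 36 did, against 6.39%, namely Hoxb1 and Hoxb2, higher in EpiLC, and Hoxc13, lower. Untreated EpiLC and mESC thus had Hox levels within 2-fold of each other for every Hox gene measured. State differences of Hoxb1 and Hoxb2 past 2-fold were seen only in the treated arrays. Untreated, Hoxb1 read 43.0 in EpiLC and 27.2 in mESC, the latter near the floor. With a constant of 4 in place of the lowest value, Hoxb1 passed 2-fold between the untreated states.

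Averaged over both states, no treatment comparison called a Hox gene in limma. For CHIR against untreated, 0 of 36 Hox genes and 0% of all genes passed, and 2 of 36 had an unadjusted p under 0.05, against 7.27% of all genes. Hoxb1 was 3.62 higher there (SE 0.86, limma adjusted p = 0.581), with a higher value in both states, and Hoxb2 2.51 higher (SE 1.05, limma adjusted p = 0.696). For CHIR with PD against CHIR, 0 of 36 passed, against 0.018% of all genes, and 1 of 36 had an unadjusted p under 0.05, against 5.77%. For CHIR with PD against untreated, 0 of 36 passed, against 0.0271%, and 0 had an unadjusted p under 0.05, against 14.3%. The fit assumes equal treatment effects in both states, which leaves a gene such as Hoxb2 with a large error, and the median SE of a Hox gene was 0.14 in these comparisons.

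Of the 22180 genes, Hoxb2 had the 6-array profile nearest to that of Hoxb1, with a root-mean-square difference of 0.57 between centred log2 profiles. Chst7, a carbohydrate sulfotransferase, followed at 0.67, then the apelin receptor Aplnr at 0.72, the Wnt-enhancing ligand Rspo3 at 0.86 and the transporter Slc44a5 at 0.89. Starting from Hoxb2, the same genes came out with Chst7 first at 0.35, and Hoxb1 took place 3. Chst7 read 78.4, 98.3 and 63.4 in mESC and 88.5, 1461 and 462 in EpiLC. Aplnr read 45.0, 42.8 and 38.9 in mESC and 33.7, 4485 and 356 in EpiLC. Both lay between their untreated and CHIR values with PD in EpiLC. The genes were chosen by likeness over all 6 arrays, that array included, so this follows from the choice and is no separate result. These are likenesses over 6 arrays that share their treatments.

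Most markers of the primitive streak and presomitic mesoderm, where Hoxb1 is first used, were also highest with CHIR in EpiLC. Of 11 measured, 9 were at least 2-fold higher there than untreated, against 2.7% of all genes past 2-fold in either direction. Those short of 2-fold were Mesp1, at 184, 198 and 191 in untreated, CHIR-treated and CHIR-and-PD-treated EpiLC, and Eomes, at 345, 390 and 33.7. Fgf8 was not highest with CHIR, at 286 there and 533 with both inhibitors. The summed intensity of the 11 markers was 1212 in untreated EpiLC, 16673 with CHIR and 1650 with both inhibitors, and 692 to 1137 in mESC. The 8 measured hindbrain and neural markers summed to 971, 1029 and 2037 in EpiLC and 576 to 667 in mESC. The 1 of these 8 called between the states in limma was Nes, at 379, 574 and 688 in EpiLC and 96.4 to 126 in mESC. Sox1, an early neural gene, read 53.5, 43.2 and 885 in EpiLC and made up most of the higher sum with both inhibitors, and Egr2, which directly activates Hoxb2 in rhombomeres, read 77.0 to 83.2 on all arrays. The 12 fibroblast markers, cells that use many Hox genes, summed to 929, 954 and 1083 in EpiLC and 741 to 789 in mESC. Col1a1, at 198, 165 and 370 in EpiLC and 80.8 to 101 in mESC, was the 1 of these 12 called between the states. In that comparison 8.3% of all genes were called. The 6 endoderm markers summed to 466, 560 and 433 in EpiLC. The part of other cell types in the Hoxb1 and Hoxb2 values was not tested.

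Partners of Hox proteins were also measured. The TALE homeodomain cofactors Pbx, Meis and Pknox bind DNA together with Hox proteins, and 2 of 8 measured were at least 2-fold higher with CHIR in EpiLC, against 2.7% of all genes past 2-fold, with a median of 0.50 against -0.03 for all genes. Pknox2 read 81.5, 706 and 1343 in untreated, CHIR-treated and CHIR-and-PD-treated EpiLC and 87.3 to 116 in mESC. Meis2 read 42.3, 182 and 236 in EpiLC and 120, 78.0 and 72.6 in mESC. Meis3 and Pbx2 were 0.67 and 0.64 higher with CHIR in EpiLC on the log2 scale. Unlike Hoxb1 and Hoxb2, Pknox2 and Meis2 were highest with both inhibitors. Between the states, Pbx3 rose by 1.72 (SE 0.16, limma adjusted p = 0.00516) and Pbx2 by 0.60 (SE 0.12, limma adjusted p = 0.0388), 2 of the 8, where 8.3% of all genes were called, and 0 fell.

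Of the other genes in and around the clusters, Evx1 differed most with CHIR in EpiLC. Of 9 measured non-Hox genes inside the clusters, 1 was at least 2-fold higher with CHIR in EpiLC, against 2.7% of all genes past 2-fold. The median was 0.00. That gene, Evx1, a streak homeobox gene beyond Hoxa13 at the far end of the Hoxa cluster, read 140, 228 and 122 in mESC and 120, 777 and 110 in EpiLC. It was highest where Hoxb1 was highest, but with PD it was back at the untreated value. Of 9 measured genes that flank the clusters, 0 passed 2-fold with CHIR in EpiLC, against 2.7% of all genes. Skap1, which flanks the Hoxb cluster beside Hoxb1, read 66.0, 55.0 and 55.6 in EpiLC. Log2 differences with CHIR in EpiLC were 0.38 for Snx10, 0.28 for Lnpk, -0.49 for Mir615, 0.21 for Hoxaas3 and 0.14 for Mir196a-2. Skap2, beside the Hoxa cluster, read 123, 209 and 305 in EpiLC and 295 to 332 in mESC, so it was lower in untreated EpiLC and 1.31 higher on the log2 scale with both inhibitors than untreated there. Mtx2, beside the Hoxd cluster, rose by 0.53 between the states (SE 0.10, limma adjusted p = 0.0322), 1 of the 9, where 8.3% of all genes were called.

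**Figure D4:**
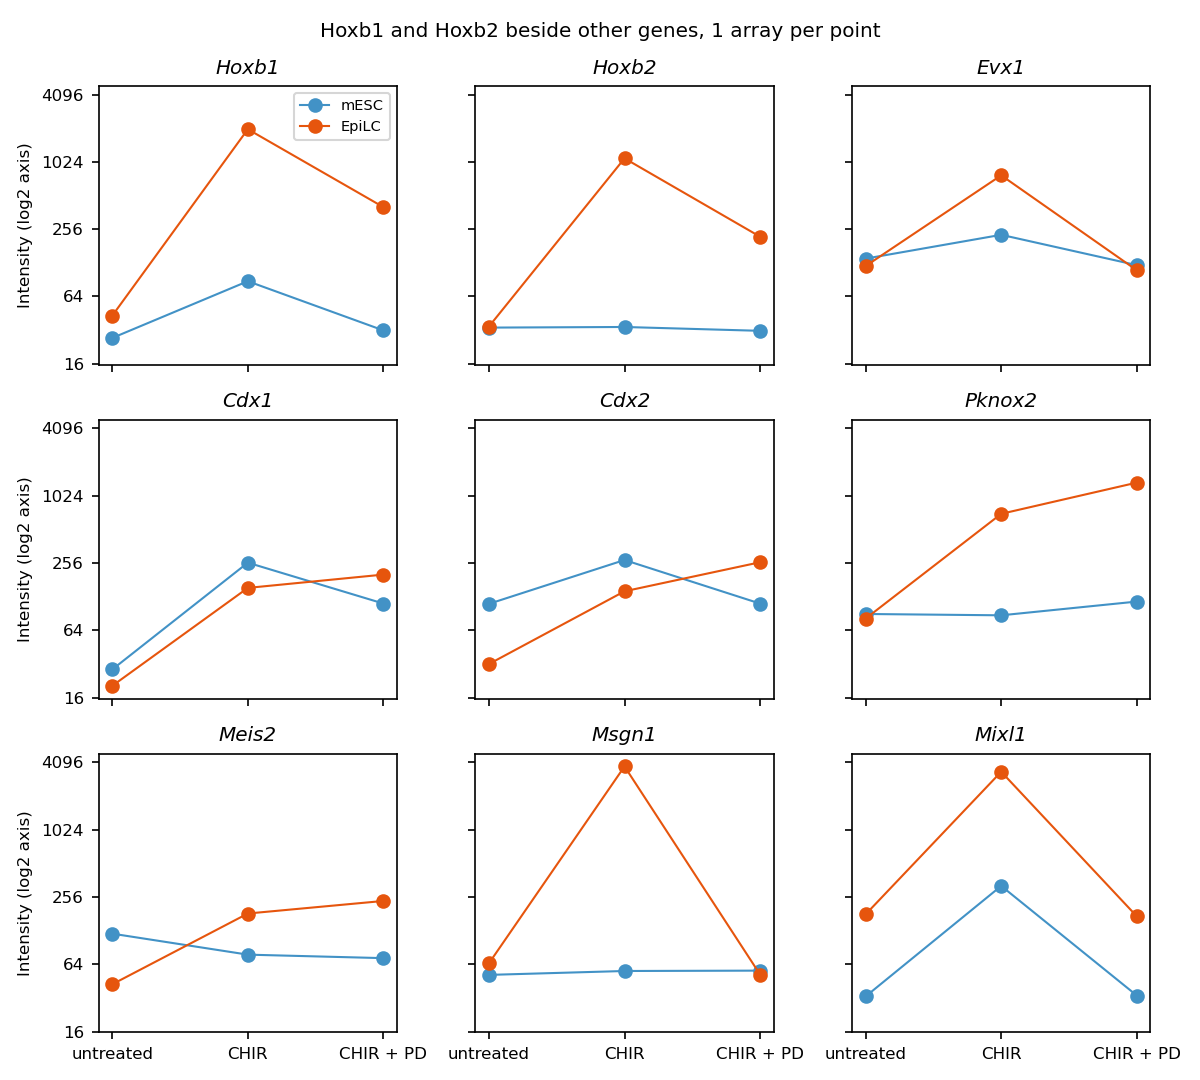
Intensity on a log2 axis of Hoxb1, Hoxb2, Evx1, Cdx1, Cdx2, Pknox2, Meis2, Msgn1 and Mixl1 by treatment, with mESC in blue and EpiLC in orange and 1 array per point. Lines join the arrays of a state. With both inhibitors in EpiLC, Hoxb1 and Hoxb2 lie at 403 and 219, between their untreated and CHIR values, Evx1, Msgn1 and Mixl1 lie near their untreated values, and the other 4 lie above their CHIR values.

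Cdx1 and Cdx2, ParaHox genes that activate trunk Hox genes in the embryo, shared a part of the Hoxb1 pattern. Cdx1 read 28.6, 258 and 111 in mESC and 20.4, 153 and 202 in EpiLC, and Cdx2 read 111, 273 and 111 in mESC and 31.97, 143 and 260 in EpiLC. Both were higher with CHIR in both states, as Hoxb1 was, whereas Hoxb2 was higher in EpiLC alone among these arrays. Within EpiLC both were highest with both inhibitors, and Hoxb1 was highest with CHIR alone. The central Hox genes showed no difference past 1.5-fold with CHIR in either state. Of the 6 ParaHox genes, Cdx1 and Cdx2 were at least 2-fold higher with CHIR in EpiLC, against 2.7% of all genes past 2-fold. Gsx2 at 0.26 and Pdx1 at -0.20 on the log2 scale came next.

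Genes of retinoic acid signalling, which acts on 3′ Hox genes through response elements in the clusters, split. With CHIR in EpiLC, 3 of the 17 measured passed 2-fold upward and 1 downward, against 2.7% of all genes past 2-fold. Cyp26a1, which degrades retinoic acid, read 29.7, 917 and 29.9 in EpiLC and 28.9 to 34.4 in mESC. Aldh1a2, which makes it, read 33.4, 120 and 65.5 in EpiLC. Crabp2, a binding protein for retinoic acid, was 1.35 higher on the log2 scale with CHIR in EpiLC, and the retinal reductase gene Dhrs3 was at -1.04. Rarb, a direct target of retinoic acid receptors, stayed between 33.4 and 45.1 on all arrays. Stra6, another retinoid-responsive gene, reached 1356 in EpiLC with both inhibitors and 39.4 to 62.4 elsewhere, on the array where Hoxb1 read 403.

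Among Polycomb and trithorax genes, which hold Hox clusters silent or active, 0 of 22 measured differed 2-fold with CHIR in EpiLC, against 2.7% of all genes. The median was -0.06. Between the states 5 of 22 fell and 0 rose in limma, where 8.3% of all genes were called, with a median of -0.35 against -0.02 for all genes. Eed, a core subunit of the PRC2 complex, fell by 1.21 (SE 0.12, limma adjusted p = 0.00596), from 1171 to 1363 in mESC down to 489 to 689 in EpiLC. Cbx7, the main chromodomain protein of PRC1 in stem cells, fell by 1.15. Mtf2, Jarid2 and Kmt2b also fell. With CHIR in EpiLC the genes furthest from 0 in log2 difference were Phc1 at -0.88, Cbx7 at -0.87, Bmi1 at 0.85 and Pcgf6 at -0.53.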

How the data were processed

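RNA was measured on 6 arrays, 1 per group. Per the series' design text the arrays were analysed with GeneSpring GX 11.5, but how values were normalized between arrays is not given in the sources used here. Linear intensity values for 33793 probes were deposited by the authors, with 0 missing and a lowest value of 16. Of these, 23521 probes carried 1 symbol, 1814 several and 8458 none in the platform table, and probes with 1 symbol were used, averaged as log2 per symbol. No filter was applied. limma 3.58.1 in R 4.3.3 fitted state plus treatment to 6 arrays, with Benjamini-Hochberg adjustment over 22180 genes and a two-sided threshold of 0.05. Its p-values measure only the spread between these arrays, as departure from additive effects, which may be technical. Pairs of arrays were compared by size, with 2-fold as the mark, in 9 comparisons. The number of arrays limits the precision. The script was tested on simulated data. The alternatives were constants of 4 and 64 in place of 16, quantile normalization, a filter on dim genes, the brightest probe per gene, probes with several symbols, robust trended or no moderation, each array left out, and a 1.5-fold mark.

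Every measured Hox gene was accounted for. Those 2-fold apart within a state, or called, were given in full, with up to 4 genes of each of 6 lists with the largest difference for CHIR in EpiLC, and the 5 genes nearest in profile to Hoxb1 and to Hoxb2. Hoxb3, Hoxc8, Hoxc12, Hoxd1 and other genes outside that rule were named after their values were seen. The members and lists were chosen with earlier results of these data known. RefSeq tables of GRCm38.p6 gave gene order and promoter windows. The build behind the array is not given in the sources used here.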

Additional observations from a re-analysis of the deposited data

How the results depend on the processing

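Of 119 alternative counts of Hox genes, 100 stayed within 1.5 times the reported count and 19 moved. These are not 119 independent checks. In the state comparison, leaving out either array of a treatment gives the same fit, so those alternatives come in pairs. The count called between the states was 1 as reported and became 0 with a constant of 4, 0 with a constant of 64, 0 without moderation, and 0 to 2 when single arrays were left out, where 2 were Hoxb1 and Hoxb2 without either untreated array. With a constant of 64, the counts past 2-fold became 0 for CHIR in mESC and 0 for PD added to CHIR in mESC. With a constant of 4 they became 3 for PD added to CHIR in mESC, 1 for both inhibitors against untreated mESC, and 1 for untreated EpiLC against mESC. With 1.5-fold as the mark they became 3 for PD added to CHIR in mESC, 3 for both inhibitors against untreated mESC, 4 for both inhibitors against untreated EpiLC, 1 for untreated EpiLC against mESC, and 5 for EpiLC against mESC with both inhibitors. The causes were not tested. The 3 fitted treatment comparisons called 0 Hox genes under all 14 alternatives. Those counts are among the 100. With at most 0.0271% of all genes called as reported, a Hox count of 0 was nearly fixed beforehand. No paired analysis was possible because each group was 1 array, with no replicate numbers to use as a block beyond the treatment term already in the fit. The Hoxb1, Hoxb2 and Hoxc13 state differences were followed after seeing the data, and none changed sign. Signal over background limits Hoxc5, Hoxd9 and Hoxc8, near the floor on 6, 5 and 4 arrays.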
